A study of Mus musculus with 62 samples.

Results

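Transcripts of the cytosolic ribosomal proteins, the protein parts of the ribosome that makes all proteins encoded in the nucleus, were followed in the tibialis anterior muscle of mice during melanoma cachexia, a tumour-driven loss of muscle and fat mass. The members were all rows of the deposited table whose symbol begins with Rpl or Rps and a digit, together with Rplp0, Rplp1, Rplp2 and Rpsa, leaving out the kinases named Rps6k, symbols ending in bp1 and pseudogene rows marked -ps. This gave 91 of 47643 gene symbols. Of these, 84 reached a mean of at least 1 TPM (transcript abundance per length, scaled to the same total in every library) over all libraries and were tested, 51 of the large and 33 of the small ribosomal subunit. Rps4l, Rps12l1, Rps3a2 and Rps3a3 were listed at 0 in every library, and Rpl10l, Rpl6l and Rpl39l stayed under 1 TPM on average.

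The muscles came from female mice, 2 months old, that had been injected with melanoma cells able to cause cachexia (CAC), with melanoma cells that do not cause it (NCAC), or with no tumour cells as a mock control (Con), and were collected 2, 4, 6 and 8 weeks later. The 62 libraries fall into 12 groups of 5, but for 7 in the CAC group of week 8, and the labels' protocols call them biological replicates. The sample labels name the strain C57BL6/J, whereas the series' design text names NCI Ath/nude mice, so the strain is uncertain. The labels do not name the melanoma lines.

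A ribosome holds its proteins in fixed proportions, and their genes are usually expressed together. Their messenger RNAs begin with an oligopyrimidine stretch, the TOP motif, through which the mTORC1 kinase pathway and the RNA-binding protein Larp1 control their translation and stability. Muscle is particular in that striated fibres replace much of Rpl3, a protein that reaches towards the catalytic centre of the large subunit, by the paralogue Rpl3l.

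The start of transcription is shown for a few members because the TOP stretch is a trait that the choice of members did not use. The RefSeq table of GRCm38.p6 held a start for 66 of the 91 members. Each line gives 30 bases on the gene's strand around the annotated start, 10 before it and 20 from it on, with the longest run of C and T in capitals.
Rpl27a, chr7:109519185-109519214, plus strand: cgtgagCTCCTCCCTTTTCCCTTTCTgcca
Rpl35, chr2:39005112-39005141, minus strand: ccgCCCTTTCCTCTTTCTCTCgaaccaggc
Rpl15, chr14:18270967-18270996, minus strand: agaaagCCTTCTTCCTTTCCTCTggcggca
Rps6, chr4:86857348-86857377, minus strand: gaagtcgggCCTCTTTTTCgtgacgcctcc
Rpl3l, chr17:24727816-24727845, plus strand: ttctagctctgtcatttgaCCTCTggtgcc
The runs of Rpl27a, Rpl35 and Rpl15, 20, 18 and 17 bases long, were among the longest found and are not typical of the members. A run of at least 8 pyrimidines was present in this window in 24 of the 66 members (36.4%), against 13.0% of the other 26959 genes. Most members thus had no such run at the annotated start. In the Rpl3l window shown the longest run was 5 bases, and at its second listed start it was 4. In the whole promoter window of 250 bases before to 50 after the start, read on both strands, the ETS-type motif CCGGAAGT stood in 18.2% of the members and 4.27% of the other genes, the YY1-type motif AAGATGGC in 9.09% and 3.18%, and the shorter SP1-type motif GGGCGG in 60.6% and 38.2%. These matches describe letters only and show no binding.

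Transcript levels spanned a wide range. Over all libraries the highest means were those of Rplp1 and Rplp0, parts of the stalk that recruits elongation factors, at 1422 and 785 TPM. Rpl4, which lines the exit tunnel of the new peptide, followed with 755 TPM, then Rpl36 with 569 TPM and Rps15 with 567 TPM. The lowest tested members were Rpl27 with 10.8 TPM, the retrocopy Rpl37rt with 18.7 TPM, Rpl7l1, a nucleolar relative of Rpl7, with 22.5 TPM, Rpl3 with 26.2 TPM and Rpl35a with 32.1 TPM. The value of Rpl27 is uncertain, since its 3 rows marked -ps together averaged 791 TPM in CAC and 407 TPM in Con muscle at 8 weeks.

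Summed over the members, ribosomal protein transcripts were about 2 times as abundant in late CAC muscle as in mock muscle. At 8 weeks the sum ran from 29374 to 46466 TPM in CAC muscle with a median of 35475 TPM, whereas Con muscle had 18294, 20606, 15980, 18822 and 14130 TPM. Every CAC library lay above every Con library. The means were 35248 ± 6227 TPM (SD, n = 7) in CAC, 18321 ± 1476 TPM in NCAC and 17566 ± 2533 TPM in Con muscle (SD, n = 5 each), which is 3.52%, 1.83% and 1.76% of all TPM.

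The fold between the means was higher at each later week. The sum averaged 18669 ± 1837 TPM in CAC and 16373 ± 1609 TPM in Con muscle at 2 weeks (1.14-fold; SD, n = 5 each). At 4 weeks it averaged 22574 ± 4197 TPM in CAC and 17634 ± 1716 TPM in Con muscle (1.28-fold), and at 6 weeks 31783 ± 6051 TPM in CAC and 17786 ± 1363 TPM in Con muscle (1.79-fold). At 8 weeks the fold was 2.01. At 4 weeks the CAC muscles were spread: 28569 and 25275 TPM in replicates 2 and 4 stood above all Con libraries, while 18520, 20197 and 20309 TPM were within or just above the Con range of 15506 to 20108 TPM. NCAC means stayed between 17234 and 18321 TPM over the 4 weeks, and Con means between 16373 and 17786 TPM. Ordered by mean, the 8 NCAC and Con groups and CAC at 2 weeks came first, each within 1 SD of the next, followed by CAC at 4, 6 and 8 weeks.

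**Figure D1:**
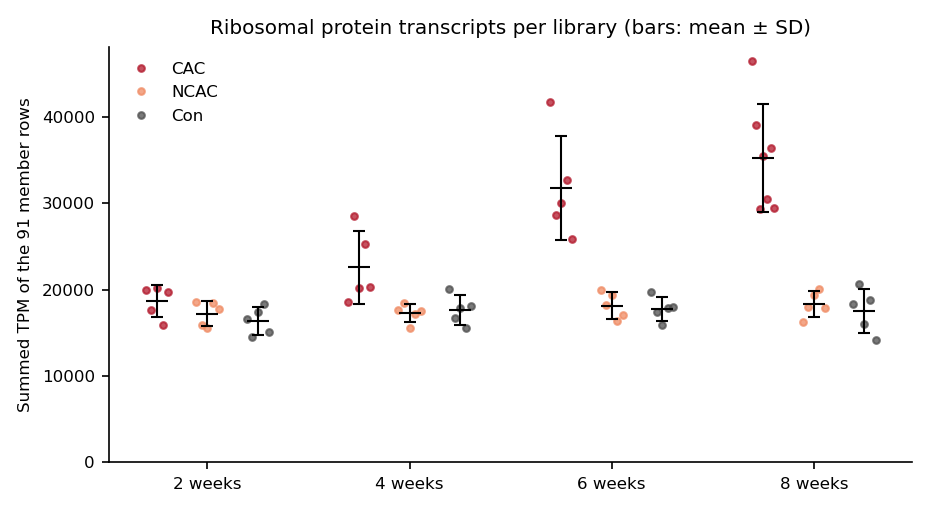
Summed TPM of the 91 member rows (y axis) in each library by week (x axis), for CAC, NCAC and Con muscle, with bars for mean ± SD. CAC libraries at 6 and 8 weeks lie above all NCAC and Con libraries, and CAC libraries at 4 weeks are spread between both levels.

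TPM fixes the total of a library, and the make-up of that total differed between groups. Transcripts encoded by mitochondrial DNA held 37.7% ± 2.43 of TPM in CAC muscle at 8 weeks (SD, n = 7), against 48.8% ± 7.07 in Con muscle (SD, n = 5), and the median of all 11107 tested genes was 0.46 higher on the log2 scale in CAC. A second scaling therefore divided each library by a size factor taken from the median ratio over genes above 0 in all libraries, called rescaled below. The fold of the sum was then 1.39 at 8 weeks, 1.30 at 6 weeks and 1.03 at 2 weeks, and it was 1.65 at 8 weeks when the mitochondrially encoded genes were left out. The other values here are on the deposited scale unless named as rescaled. The libraries of CAC replicate 1 at 6 weeks and CAC replicates 1 and 6 at 8 weeks had extreme positions on the leading principal component. In bulk muscle, fewer cells of a type and less RNA per cell cannot be told apart.

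Gene by gene, nearly the whole family was higher in CAC than in mock muscle at 6 and 8 weeks. At 8 weeks 83 of the 84 tested members rose (limma, adjusted p under 0.05) and 0 fell, where 69.4% of all tested genes were called higher and 5.09% lower. At 6 weeks 81 members rose and 0 fell, where 60.7% of all genes were called higher and 3.26% lower. After rescaling, 74 members were higher at 8 weeks and 67 at 6 weeks, where 23.8% and 15.5% of all genes were called higher, and 66 members were higher at both weeks. Rescaled values gave 2 lower members at 8 weeks, Rpl3l and Rpl7l1, and 1 at 6 weeks, Rpl3l, where 24.9% and 19.2% of all genes were called lower. Without the 3 extreme libraries 83 members were higher at 8 weeks and 81 at 6 weeks. The share of all genes was computed neither for that fit nor for genes higher at both weeks. The median log2 change of the members was 0.98 at 8 weeks, beside 0.46 for all genes, and 0.84 at 6 weeks, beside 0.38 for all genes. The rescaled medians were 0.45 at 8 weeks and 0.39 at 6 weeks, beside 0.01 and 0.00 for all genes. In 77 of the 84 members every CAC library was above every Con library at 8 weeks, and likewise in 77 at 6 weeks, while this held for 38% and 44.3% of all tested genes. The small subunit members had a median change of 1.04 and the large subunit members of 0.97 at 8 weeks.

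At 4 weeks 2 members were called higher, Rpl17 and Rps23, where 0.891% of all genes were called. Rpl17 lies beside the exit tunnel of the large subunit and changed by 0.41 ± 0.11 (SE, limma adjusted p = 0.0398) on the log2 scale. Rps23 sits at the decoding centre of the small subunit. It had 374, 611, 433, 562 and 436 TPM in CAC and 420, 329, 357, 325 and 353 TPM in Con muscle (log2 change 0.42 ± 0.11 SE, limma adjusted p = 0.0482). CAC replicates 2 and 4 carried the highest Rps23 values, and CAC replicate 1 lay within the Con range. Neither gene was called after rescaling (0 members, where 0.9% of all genes were called higher and 0.648% lower). The count depended on single libraries, with 0 without CAC replicate 2 and 11 without CAC replicate 1. At an unadjusted p under 0.05, 71 members were higher, where 11.8% of all genes were, and 36 after rescaling, where 6.46% were. In 6 members every CAC library was above every Con library, which held for 2.3% of all genes. At 2 weeks limma called 0 members, where 0.054% of all genes were called higher, and 18 members were higher at an unadjusted p under 0.05, where 8.03% of all genes were, and 2 after rescaling, where 2.23% were.

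The difference between CAC and Con muscle was itself larger at 8 than at 2 weeks in 77 of 84 members and smaller in 0, where 36.4% of all genes were called larger and 2.57% smaller, and it was larger in 45 after rescaling, where 8.45% were called. Rpl3 had the smallest adjusted p in this test, with a difference larger by 1.28 ± 0.21 (SE, limma adjusted p = 1.7e-05) on the log2 scale. Rpl12, Rpl23a and Rps23 also had larger differences, by 1.13, 0.76 and 0.90, and these and Rpl3 were called after rescaling as well. No member was called by limma for the step between 2 and 4, 4 and 6 or 6 and 8 weeks, for which 0%, 0.882% and 0% of all genes were called larger, and 1, 69 and 4 members were larger at an unadjusted p under 0.05, where 1.04%, 26.8% and 2.57% of all genes were. After rescaling these counts were 4, 3 and 2, where 1.7%, 4.67% and 2.5% of all genes were larger.

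In NCAC muscle no member differed from the mock level by the test. NCAC against Con gave 0 called members at 2, 4, 6 and 8 weeks by limma, and 1, 0, 0 and 3 were higher at an unadjusted p under 0.05, where 1.29%, 0.207%, 0.333% and 0.486% of all genes were. After rescaling 2, 0, 1 and 3 were, beside 1.98%, 0.666%, 1.62% and 0.909% of all genes. By adjusted p, of all genes 0.162% were called lower at 2 weeks and 0.009% higher at 8 weeks, and after rescaling 0.018% higher and 0.189% lower at 2 weeks and 0.009% each way at 8 weeks. The median log2 changes were 0.08, -0.03, 0.04 and 0.06. Against NCAC muscle, CAC muscle had 0, 21, 81 and 81 members called higher at 2, 4, 6 and 8 weeks, where 0.063%, 4.68%, 64.2% and 67% of all genes were called higher, and 0 called lower, where 5.04% of all genes were called lower at 8 weeks. After rescaling these counts were 0, 2, 49 and 71, where 0.045%, 2.64%, 19.4% and 23.4% of all genes were called higher (0.009% lower at 2 weeks). Every CAC library was above every NCAC library in 0, 35, 77 and 77 members, and in 2.62%, 8.92%, 43.1% and 40.1% of all genes. These comparisons share the CAC libraries with those against Con. At 4 weeks the 5 smallest adjusted p were those of Rpl3, Rpl17, Rps23, Rpl4 and Rps25, with log2 changes of 0.64, 0.46, 0.45, 0.51 and 0.47, and the count of 21 was 0 without CAC replicate 2 and 55 without CAC replicate 1. At 6 weeks the smallest adjusted p against NCAC were those of Rpl3, Rps24, Rpl12, Rps23 and Rps4x, with log2 changes of 1.29, 0.85, 1.06, 0.86 and 1.05. At 8 weeks they were those of Rpl3, Rps23, Rps20, Rpl23a and Rpl12, with 1.595, 1.10, 1.20, 0.86 and 1.24. After rescaling, each gene named for 6 and 8 weeks was called as well, whereas at 4 weeks 2 of the 5 were, Rpl3 and Rpl4.

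**Figure D2:**
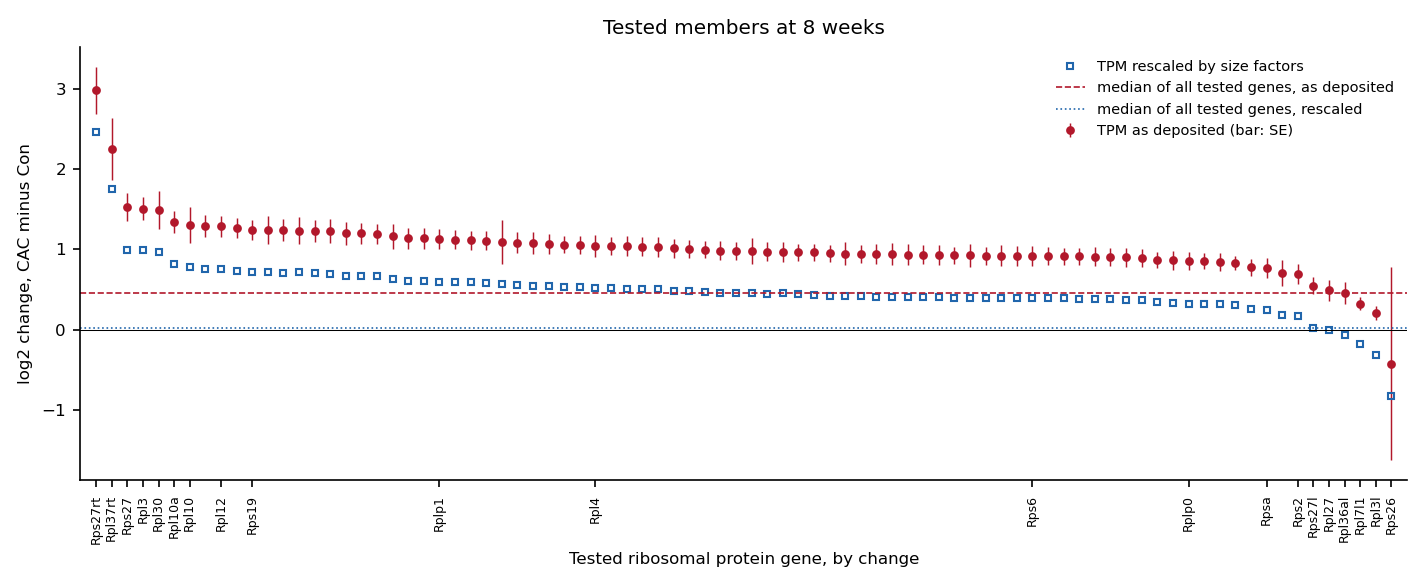
log2 change of TPM, CAC minus Con at 8 weeks (y axis), of the 84 tested members ordered by change (x axis, with some members named), as deposited with SE bars and after rescaling. Most members lie near 0.98 as deposited and 0.45 rescaled, above the dashed and dotted lines that mark the medians of all tested genes, with Rps27rt and Rpl37rt at the high end and Rpl3l and Rps26 at the low end.

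The member with the smallest adjusted p at 8 weeks was Rpl3. At 8 weeks Rpl3 ran from 42.7 to 72.0 TPM in CAC muscle with a median of 56.2 TPM, against 15.5, 17.1, 19.3, 17.6 and 17.8 TPM in NCAC and 20.9, 22.5, 16.7, 15.5 and 18.2 TPM in Con muscle. The CAC values were all above those of both other groups. Rpl3 was 2.97-fold higher in CAC than in Con muscle (log2 change 1.51 ± 0.14 SE, limma adjusted p = 1.17e-12; 0.99 rescaled, limma adjusted p = 6.02e-09). At 6 weeks it had 67.7, 37.1, 37.8, 56.1 and 39.3 TPM in CAC and 18.04, 21.7, 17.6, 19.4 and 18.5 TPM in Con muscle, again without overlap (log2 change 1.24 ± 0.15 SE, limma adjusted p = 7.13e-09). At 4 weeks CAC muscle had 18.3, 50.9, 23.6, 30.3 and 26.2 TPM, against 20.3, 18.7, 22.2, 19.8 and 18.6 TPM in Con muscle, and this difference did not pass the test (limma adjusted p = 0.13).

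Its muscle paralogue Rpl3l was far more abundant and moved little. At 8 weeks Rpl3l ran from 397 to 628 TPM in CAC muscle with a median of 529 TPM, against 453, 506, 504, 523 and 496 TPM in NCAC and 473, 516, 476, 465 and 370 TPM in Con muscle, and the groups overlapped. The log2 change was 0.21 ± 0.09 (SE, limma adjusted p = 0.0277) on the deposited scale, less than the 0.46 of the median gene. On the rescaled values Rpl3l fell by 0.32 on the log2 scale at 8 weeks (limma adjusted p = 0.000712) and by 0.32 at 6 weeks (limma adjusted p = 0.00284), so its direction depends on the scaling. At 6 weeks the deposited values gave 0.13 ± 0.09 (SE, limma adjusted p = 0.222).

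A ratio within a library does not move with the scaling of that library. Rpl3l exceeded Rpl3 by 5.51 to 14.5 times in CAC muscle at 8 weeks, with a mean of 10.1 ± 3.29 (SD, n = 7), against 28.5 ± 1.53 in NCAC and 24.9 ± 4.14 in Con muscle (SD, n = 5 each). At 6 weeks the means were 12.2 ± 2.52 in CAC, 27.7 ± 2.99 in NCAC and 26.6 ± 2.26 in Con muscle (SD, n = 5 each). The log2 ratio was lower in CAC than in Con muscle by 1.30 at 8 weeks and by 1.11 at 6 weeks, with no overlap of libraries (exact two-sided permutation tests, p = 0.002525 and 0.007937, the smallest these designs allow, adjusted over 60 tests 0.0217 and 0.0318). Against NCAC muscle it was lower by 1.51 and 1.16 (exact adjusted p = 0.0217 and 0.0318). At 4 weeks the ratio was 19.1 ± 6.89 in CAC and 25.5 ± 3.48 in Con muscle (SD, n = 5 each; exact adjusted p = 0.229), and NCAC against Con did not pass the test at any week (exact adjusted p from 0.246 to 0.635).

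**Figure D3:**
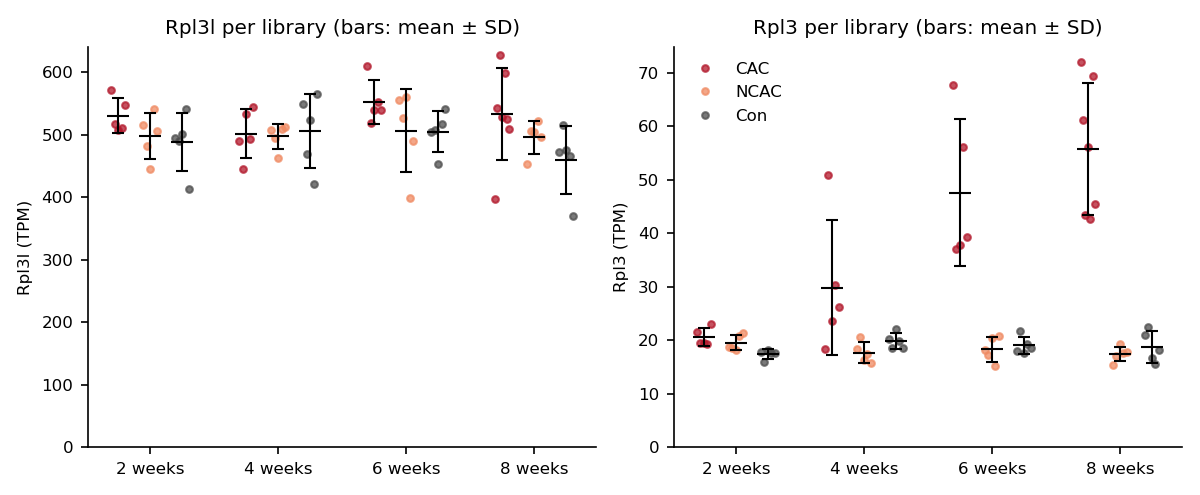
Rpl3l (left) and Rpl3 (right) in TPM (y axes) in each library by week (x axes), with bars for mean ± SD. Rpl3l overlaps between CAC, NCAC and Con muscle at every week, whereas Rpl3 at 6 and 8 weeks is above 37 TPM in every CAC library and under 23 TPM in every NCAC and Con library.

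Rpl3 (GRCm38, chromosome 15, 80077791 to 80091868, minus strand) and Rpl3l (chromosome 17, 24727820 to 24736143, plus strand) lie on different chromosomes, and their sequences are shown because the comparison rests on telling them apart. Their coding sequences, taken from GENCODE transcripts of that build, are 1212 and 1224 bases long and identical in 73.2% of aligned positions, and the longest run that both share is 22 bases. The first 120 coding bases of each follow, with the 31 positions that differ in capitals.
Rpl3l: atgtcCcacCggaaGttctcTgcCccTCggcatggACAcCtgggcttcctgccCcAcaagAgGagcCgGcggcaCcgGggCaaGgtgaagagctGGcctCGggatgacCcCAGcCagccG
Rpl3: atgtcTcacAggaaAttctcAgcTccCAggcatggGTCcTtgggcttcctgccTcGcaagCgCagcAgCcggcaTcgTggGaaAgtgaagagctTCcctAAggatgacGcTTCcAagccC

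Other members with a paralogue behaved in different ways. Rps27, a zinc finger protein of the small subunit, ran from 321 to 954 TPM in CAC muscle at 8 weeks with a median of 495 TPM, against 138, 184, 204, 188 and 184 TPM in NCAC and 177, 198, 143, 189 and 140 TPM in Con muscle, 3.04-fold higher (log2 change 1.52 ± 0.17 SE, limma adjusted p = 3.37e-10). Every CAC library exceeded every NCAC and Con library. Its paralogue Rps27l, known as a p53 target, ran from 114 to 209 TPM with a median of 139 TPM in CAC muscle, against 96.5, 107, 90.4, 109 and 96.5 TPM in NCAC and 106, 114, 84.8, 113 and 76.7 TPM in Con muscle (log2 change 0.55 ± 0.11 SE, limma adjusted p = 1.39e-05; 0.02 rescaled, limma adjusted p = 0.867), and its lowest CAC value overlapped the highest Con value. The ratio of Rps27l to Rps27 was 0.304 ± 0.069 in CAC (SD, n = 7), 0.567 ± 0.0941 in NCAC and 0.583 ± 0.0211 in Con muscle (SD, n = 5 each) at 8 weeks, without overlap of CAC and the other groups (log2 difference to Con -0.97, exact adjusted p = 0.0217). At 6 and 4 weeks the log2 difference to Con was -0.81 and -0.46 (exact adjusted p = 0.0318 for both). At 4 weeks it was -0.30 without CAC replicate 2 (exact adjusted p = 0.056) and ran to -0.53 on leaving out another library. The call was lost in each of the 10 runs without 1 library, at 4 and likewise at 6 weeks, where 4 libraries against 5 allow no smaller exact p. CAC against NCAC overlapped at 4 weeks and did not pass (-0.31, exact adjusted p = 0.238).

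The ratio of Rpl36al to its paralogue Rpl36a at 8 weeks was 0.987 ± 0.118 in CAC (SD, n = 7), 1.496 ± 0.232 in NCAC and 1.52 ± 0.157 in Con muscle (SD, n = 5 each), a log2 difference between CAC and Con of -0.61 (exact adjusted p = 0.0217). At 6 weeks it was 1.20 ± 0.119 in CAC and 1.501 ± 0.0777 in Con muscle (SD, n = 5 each; exact adjusted p = 0.0318). This call was lost in each of the 10 runs without 1 library (log2 difference -0.36 to -0.28). NCAC muscle had 1.44 ± 0.112 at 6 weeks (SD, n = 5). CAC overlapped NCAC at 6 weeks and did not pass (log2 difference -0.25, exact adjusted p = 0.0529). Their coding sequences, both 321 bases long, are identical in 87.9% of positions and share no run longer than 24 bases. Rpl36a itself was 2.18-fold and Rpl36al 1.38-fold higher in CAC than in Con muscle at 8 weeks. The pair of Rpl22, an RNA-binding protein, and Rpl22l1 had similar levels. Both rose at 8 weeks, 2.05-fold for Rpl22 and 2.53-fold for Rpl22l1 (limma adjusted p = 7.87e-10 and 3.51e-08), and the ratio of Rpl22l1 to Rpl22 was 1.26 ± 0.240 in CAC (SD, n = 7) and 1.05 ± 0.164 in Con muscle (SD, n = 5; exact adjusted p = 0.238). At 4 weeks this ratio had been lower in CAC muscle, 0.990 ± 0.0930 against 1.15 ± 0.0499 in Con muscle (SD, n = 5 each; log2 difference -0.22, exact adjusted p = 0.0318). That call was lost in each of the 10 runs without 1 library (log2 difference -0.25 to -0.18).

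**Figure D4:**
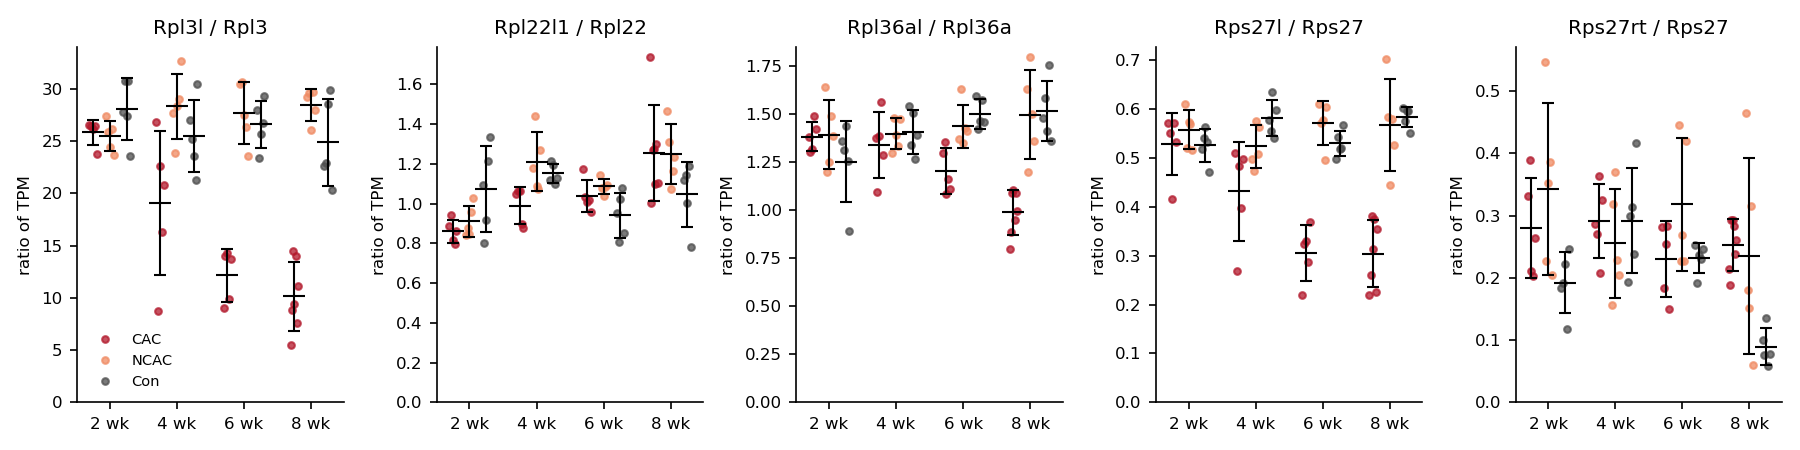
Ratio of TPM of paralogue to parent (y axes) in each library by week (x axes) for the 5 tested pairs, with bars for mean ± SD. Rpl3l/Rpl3, Rps27l/Rps27 and Rpl36al/Rpl36a are lower in CAC than in Con muscle at 6 and 8 weeks, Rpl22l1/Rpl22 overlaps at these weeks, and Rps27rt/Rps27 is lowest in Con muscle at 8 weeks.

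Of all members Rps27rt and Rpl37rt had the largest log2 changes at 8 weeks, 2.98 ± 0.29 and 2.25 ± 0.38 (SE, limma adjusted p = 4.27e-12 and 1.63e-06). Both are retrocopies, Rpl37rt being annotated by GENCODE as a transcribed processed pseudogene, and the levels in mock muscle at 8 weeks were low. Rps27rt ran from 83.8 to 204 TPM in CAC muscle with a median of 107 TPM, against 63.8, 33.3, 30.9, 59.3 and 11.1 TPM in NCAC and 17.6, 15.0, 19.3, 10.9 and 10.9 TPM in Con muscle. The CAC libraries lay above both other groups, and NCAC and Con overlapped. In Con muscle at 6 weeks it had held 52.1, 33.5, 36.7, 37.9 and 39.4 TPM, so the 8-week mock libraries lay under every 6-week mock library. Rpl37rt ran from 18.8 to 40.4 TPM in CAC muscle with a median of 37.5 TPM, against 19.3, 23.1, 16.4, 9.96 and 4.11 TPM in NCAC and 1.27, 1.80, 14.6, 7.59 and 17.3 TPM in Con muscle, so CAC overlapped NCAC but not Con, and at 6 weeks it was not called (limma adjusted p = 0.191). The ratio of Rps27rt to Rps27 at 8 weeks was 0.253 ± 0.0413 in CAC (SD, n = 7), 0.235 ± 0.157 in NCAC and 0.0894 ± 0.0296 in Con muscle (SD, n = 5 each). CAC differed from Con by 1.46 on the log2 scale (exact adjusted p = 0.0217), while CAC against NCAC did not pass (0.36, exact adjusted p = 0.622).
The coding sequence of Rps27rt equals that of Rps27 over all 255 bases, whereas that of Rps27l is identical in 76.1%, as the first 90 coding bases show (GENCODE transcripts, GRCm38; Rps27l at chr9:66946086-66949516, plus strand, Rps27 at chr3:90212522-90213651, minus strand, and Rps27rt at chr9:114982366-114982739, minus strand; capitals mark where Rps27l and Rps27 differ, and Rps27rt is in lower case).
Rps27l: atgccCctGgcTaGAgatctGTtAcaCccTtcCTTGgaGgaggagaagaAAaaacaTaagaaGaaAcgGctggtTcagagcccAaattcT
Rps27: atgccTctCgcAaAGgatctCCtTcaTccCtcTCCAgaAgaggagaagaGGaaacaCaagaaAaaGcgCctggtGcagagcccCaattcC
Rps27rt: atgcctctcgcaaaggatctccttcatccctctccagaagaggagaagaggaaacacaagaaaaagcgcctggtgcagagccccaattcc
Reads from identical stretches cannot be assigned to either gene by their letters, and how the authors divided them is not given in the sources used here, so the separate levels of Rps27 and Rps27rt are uncertain. Their summed level at 8 weeks was 639 ± 253 TPM in CAC (SD, n = 7), 219 ± 22.01 TPM in NCAC and 184 ± 26.5 TPM in Con muscle (SD, n = 5 each). The sum of Rpl37 and Rpl37rt was 352 ± 98.8 TPM in CAC, 183 ± 13.3 TPM in NCAC and 176 ± 36.1 TPM in Con muscle.

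Rps26, which lines the exit of the messenger RNA channel, carries a like uncertainty. It was the tested member that was not called at 8 weeks (log2 change -0.43 ± 1.20 SE, limma adjusted p = 0.757). In CAC replicates 2 and 4 at 8 weeks, Con replicate 3 at 8 weeks and NCAC replicate 5 at 2 weeks, Rps26 held 0, 0.208, 0.0939 and 0.480 TPM, while its pseudogene row Rps26-ps1 held 836, 967, 444 and 476 TPM. The sum of both rows at 8 weeks was 774 ± 121 TPM in CAC (SD, n = 7), 399 ± 19.6 TPM in NCAC and 404 ± 59.5 TPM in Con muscle (SD, n = 5 each). With each member added to its own -ps rows, which exist for 59 members, all 84 tested members were called higher at 8 weeks and 82 at 6 weeks, and Rps26 changed by 0.93 and Rpl27 by 0.96 on the log2 scale at 8 weeks. This alternative was chosen after seeing the data and was run on the deposited scale only. The share of all genes called in it was not computed. In the main fit that share was 69.4% higher at 8 weeks and 60.7% at 6 weeks.

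Members with defined roles followed the family. Of the stalk proteins, Rplp1 averaged 2475 ± 435 TPM in CAC muscle at 8 weeks (SD, n = 7), and 1157 ± 169 TPM in NCAC and 1130 ± 176 TPM in Con muscle (SD, n = 5 each). This was 2.19-fold higher in CAC than in Con muscle, with 1.79-fold for Rplp0 and 1.99-fold for Rplp2, all called by limma. Rpl5 and Rpl11, which bind the 5S ribosomal RNA and, when free, the p53 regulator Mdm2, were 2.09-fold and 1.92-fold higher (limma adjusted p = 4.31e-10 and 1.89e-09). Rps6, the ribosomal substrate of the S6 kinases, ran from 262 to 587 TPM in CAC muscle with a median of 363 TPM, against 192, 222, 238, 241 and 226 TPM in NCAC and 209, 242, 187, 222 and 183 TPM in Con muscle, and the CAC libraries were apart from both (1.94-fold over Con, limma adjusted p = 1.11e-08).

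Rpl10, which joins the large subunit late and is needed for the subunits to unite, ran from 61.8 to 146 TPM in CAC muscle with a median of 85.6 TPM, against 34.5, 29.3, 44.0, 39.2 and 33.8 TPM in NCAC and 36.9, 39.5, 22.2, 53.4 and 35.3 TPM in Con muscle (2.53-fold over Con, limma adjusted p = 1.79e-06), and the CAC libraries stood above the others. Rpl12, at the base of the stalk, was 2.46-fold, Rpl10a 2.60-fold and Rpl30 2.87-fold higher. Rps19, whose human counterpart is mutated in Diamond-Blackfan anaemia, was 2.41-fold higher, Rpl39 of the exit tunnel 2.10-fold, Rps27a, made as a fusion with ubiquitin, 2.00-fold, Rps3 of the messenger RNA entry channel 1.98-fold and Rpsa 1.71-fold. All of these passed the test. Rpl10, Rpl12, Rpl10a, Rpl30, Rps19, Rpl39, Rps27a and Rps3 also passed it after rescaling, whereas Rpsa did not (limma adjusted p = 0.101).

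A small set of members lagged. Beside Rpl3l, the lowest log2 changes among called members at 8 weeks were those of Rpl7l1 (0.32 ± 0.08 SE), Rpl36al (0.45 ± 0.13 SE), Rpl27 (0.49 ± 0.13 SE), Rps27l (0.55 ± 0.11 SE) and Rps2 (0.69 ± 0.12 SE), each called by limma. None of these 5 was called higher after rescaling, and Rpl7l1 was then lower by 0.18 on the log2 scale (limma adjusted p = 0.0474). The lag of Rpl27 is uncertain, because its -ps rows held most of the summed level. Its row and -ps rows together averaged 807 ± 120 TPM in CAC (SD, n = 7) and 418 ± 80.2 TPM in Con muscle (SD, n = 5) at 8 weeks. At 6 weeks Rpl7l1, Rps27l, Rps2 and Rplp0 had the lowest changes among called members, 0.33, 0.43, 0.49 and 0.61, while Rpl10, Rps27, Rpl3, Rps27rt, Rpl12 and Rpl10a had the highest, 1.27, 1.25, 1.24, 1.19, 1.14 and 1.12. The weeks share no library. Across the 84 members the changes at 6 and 8 weeks had a Pearson r of 0.61 and a Spearman rho of 0.71. These are given as a description because genes are not independent replicates. Without Rps26, Rps27rt and Rpl37rt, which lie off the line of equal change, r was 0.84 and rho 0.75 over 81 members. Leaving out members that lie off the line raises r in itself. Of the 20 members with the highest change, 12 were shared by both weeks (60.0% of each list), and 13 of the 20 with the lowest (65.0%). The change at 8 weeks had a Spearman rho of -0.17 with the level in mock muscle.

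**Figure D5:**
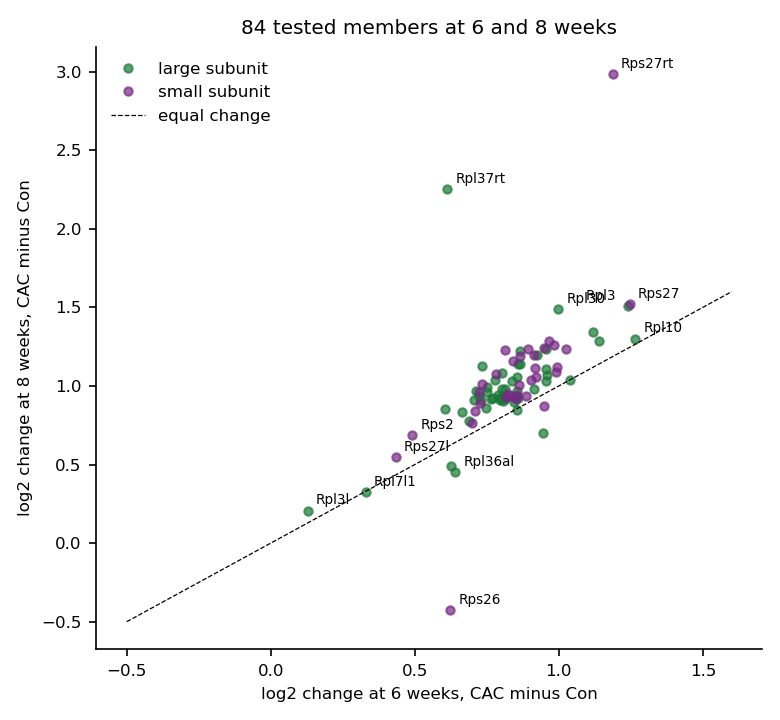
log2 change of TPM, CAC minus Con, at 8 weeks (y axis) against 6 weeks (x axis) for the 84 tested members, coloured by ribosomal subunit, with a dashed line of equal change. Most members lie in a compact cloud around 0.84 at 6 and 0.98 at 8 weeks, with Rpl3 and Rps27 at its upper end, Rpl3l and Rpl7l1 at its lower end, and Rps27rt, Rpl37rt and Rps26 off the line.

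Genes of neighbouring functions were read beside the members, again where 69.4% of all genes were called higher at 8 weeks, and 23.8% higher and 24.9% lower after rescaling. Rack1, the signalling scaffold of the small subunit listed under its older symbol Gnb2l1, was 2.24-fold higher in CAC than in Con muscle at 8 weeks (limma adjusted p = 3.37e-10; 0.62 rescaled, limma adjusted p = 1.22e-06). Fau, made as a fusion with a ubiquitin-like protein, was 1.41-fold higher (limma adjusted p = 0.00165) and was not called after rescaling (limma adjusted p = 0.888). All 16 other transcripts with a TOP motif rose at 8 weeks, with a median log2 change of 0.83, and 9 were higher and 1 lower after rescaling. Eef1a1, the elongation factor that brings transfer RNAs to the ribosome, was 2.64-fold higher (limma adjusted p = 1.43e-15), and Eef1b2 and Btf3 changed by 0.84 and 0.92 on the log2 scale. All 10 import and assembly genes were higher on the deposited scale, with 1 higher and 1 lower after rescaling, and the assembly factors Gltscr2, Grwd1 and Heatr3 changed by 0.59, 0.71 and 0.67.

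Of 12 regulators of ribosomal protein genes and of TOP translation, 11 rose on the deposited scale, and 4 were higher and 1 lower after rescaling. Myc, a transcription factor that drives ribosome synthesis, averaged 10.1 ± 4.07 TPM in CAC (SD, n = 7), 1.38 ± 0.592 TPM in NCAC and 1.07 ± 0.331 TPM in Con muscle (SD, n = 5 each), with a log2 change of 2.35 ± 0.24 (SE, limma adjusted p = 1.61e-11). Eif4ebp1, which holds back cap-dependent translation when mTORC1 is low, averaged 466.3 ± 401 TPM in CAC, 42.2 ± 13.8 TPM in NCAC and 37.0 ± 13.1 TPM in Con muscle, and the CAC libraries were spread from 46.6 to 1066 TPM (log2 change 3.13 ± 0.38 SE, limma adjusted p = 1.63e-09). Sp1 changed by 0.97 ± 0.15 (SE, limma adjusted p = 3.1e-07). These lists share the scaling of the members, and the median of all genes at 8 weeks was 0.46.

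The tissue label was checked against its markers. Together, 10 markers of muscle fibres held 81047 to 130230 TPM in CAC, 107200 to 130140 TPM in NCAC and 84892 to 134830 TPM in Con muscle at 8 weeks, and 3 of them rose and 3 fell in CAC against Con on the deposited scale. After rescaling 1 was higher and 5 were lower, with a median log2 change of -0.39. Markers of several other cell types were also called at 8 weeks, where 69.4% of all genes were called higher and 5.09% lower. After rescaling these shares were 23.8% and 24.9%. All 7 tested macrophage and monocyte markers rose at 8 weeks, 4 of them after rescaling, and the 8 listed summed to 99.0 to 271 TPM in CAC, 28.1 to 55.6 TPM in NCAC and 44.3 to 95.3 TPM in Con muscle. Of 5 endothelial markers 4 rose and 1 fell (3 higher and 1 lower rescaled), with sums of 147 to 193 TPM in CAC and 83.3 to 120 TPM in Con muscle. Of 3 tested adipocyte markers 2 rose (1 rescaled), with sums of 60.0 to 222 TPM in CAC and 11.6 to 56.3 TPM in Con muscle. Both tested neutrophil markers rose (1 rescaled), with sums of 12.1 to 55.5 TPM in CAC and 5.05 to 8.36 TPM in Con muscle. Of 6 fibroblast markers 2 rose on the deposited scale, with sums of 299 to 658 TPM in CAC and 206 to 371 TPM in Con muscle. After rescaling 1 was higher and 2 were lower, with a median log2 change of -0.45. None of the 5 erythroid or the 2 tested satellite cell markers was called on either scale, although erythroid markers ranged from 147 to 14744 TPM in CAC muscle, against 324 to 1169 TPM in Con muscle. The 6 lymphocyte and 5 melanocyte markers each averaged under 1 TPM at 8 weeks in all groups. The part of these cells in the members' changes was not tested.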

How the data were processed

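Stranded mRNA libraries of tibialis anterior muscle were sequenced on an Illumina platform, per the labels' protocols. Values were deposited by the authors as TPM, in a single table of 47643 gene symbols by 62 libraries, and each column sums to 1000000. The genome build was mm10, per the submitters' processing notes. For the aligner, counter and annotation the entry is: not given in the sources used here. Read depth is unknown.

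The 11107 genes that averaged 1 TPM or more were tested as log2(TPM + 1) with limma 3.58.1 in R 4.3.3, in one fit of all 12 groups with Benjamini-Hochberg adjustment over all tested genes within each contrast and a threshold of 0.05. Ratios of 5 paralogue pairs were tested by exact two-sided permutation and adjusted over 60 tests. Fold changes in TPM are ratios of group means, and log2 changes understate those of low genes. Python 3.11.15, numpy 2.4.6, pandas 2.3.3, scipy 1.17.1 and matplotlib 3.10.9 were used, and the fits were tested on simulated data. The text names the paralogue pairs, the 6 highest and 6 lowest log2 changes between CAC and Con at 6 and 8 weeks, up to 5 called members by adjusted p in other comparisons, the 5 highest and 5 lowest mean levels, a panel of members with known roles, and up to 3 called genes per list. Some genes that this rule names are not reported here. Members and lists were chosen with earlier results of these data known. Rack1 and Nop53 were matched under their older symbols Gnb2l1 and Gltscr2. Alternatives were another pseudocount, no filter, rescaling by median ratios, leaving out mitochondrially encoded genes or libraries, library weights, single-week fits and replicate blocks.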

Additional observations from a re-analysis of the deposited data

Results flagged for a closer look

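In 132 sets of a measure within a group, 5 held a library farther from its group than Dixon's 95% limit allows, and chance flags about 1 in 20 such sets. Rps26 held 806 TPM in CAC replicate 1 at 6 weeks, with 583 TPM in the nearest library of its group. It held 193 TPM in NCAC replicate 1 at 8 weeks, with 369 TPM in the nearest. The ratio of Rpl3l to Rpl3 was 23.7 in CAC replicate 5 at 2 weeks, with 26.1 in the nearest. The ratio of Rpl22l1 to Rpl22 was 1.74 in CAC replicate 1 at 8 weeks, with 1.30 in the nearest, and this library was also extreme on the leading principal component. The ratio of Rps27l to Rps27 was 0.417 in CAC replicate 3 at 2 weeks, with 0.532 in the nearest.

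The difference between CAC and Con muscle itself differed between weeks. It was larger at 8 than at 2 weeks in 77 of the 84 tested members (limma, adjusted p under 0.05). By the same test 36.4% of all genes were called larger. After rescaling it was larger in 45 members, where 8.45% of all genes were called. For Rpl3 it was larger by 1.28 on the log2 scale as deposited.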

How the results depend on the processing

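The 6- and 8-week counts of higher members were within 1.5 times under each alternative run, except CAC against NCAC at 6 weeks, 49 of 81 after rescaling. In NCAC replicate 4 at 6 weeks, mitochondrially encoded transcripts held 61.1% of TPM and the size factor was 0.607. Its rescaled sum was 26870 TPM, beside a group median of 19068 TPM, and its part in the count of 49 was not tested. Rescaling gave 1 lower member at 6 weeks and 2 at 8 weeks against Con, and 1 and 2 against NCAC. Of all genes, 19.2% and 24.9% were then called lower against Con, and 22.6% and 25.6% against NCAC. Lower members against NCAC at 8 weeks numbered 1 with the replicate block, 1 without the 3 extreme libraries and 1 with library weights. At 4 weeks the 2 members higher than Con became 0 without the filter, 0 rescaled, 0 without mitochondrially encoded genes, 0 in a single-week fit and 17 without the 3 extreme libraries, and leaving out 1 library gave 0 to 11. The 21 higher than NCAC at 4 weeks became 8 without the filter, 2 rescaled, 10 without mitochondrially encoded genes, 52 without the extreme libraries, 48 with library weights and 33 in a single-week fit, with 0 to 55 on leaving out 1 library. NCAC against Con at 8 weeks gave 0 to 1 (1 without NCAC replicate 5). The change between 4 and 6 weeks gave 67 members with library weights, beside 0 in the main fit, and that between 2 and 8 weeks 45 rescaled. Shares of all genes called were computed for the main and rescaled fits only, so the other counts here cannot be read beside them. The fold of the sum was 1.03, 1.30 and 1.39 rescaled at 2, 6 and 8 weeks, and 1.65 at 8 weeks without mitochondrially encoded genes. The cause of these shifts was not tested.

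Of single genes, Rpl3l changed sign when rescaled (log2 change -0.0228, -0.32 and -0.32 at 2, 6 and 8 weeks), without mitochondrially encoded genes (-0.00164, -0.11 and -0.0862) and at 4 weeks with library weights (0.0166; -0.0700 to 0.0358 on leaving out 1 library). Rescaled, Rpl36al (-0.0727) and Rpl27 (-0.00246) at 8 weeks, Rps27l (-0.0113) at 6 weeks and Rpl7l1 (-0.10 and -0.18 at 6 and 8 weeks) reversed. Rps26 at 8 weeks was 0.93 with its -ps row and -2.12 to 0.66 on leaving out 1 library. The difference between CAC and Con in the log2 ratio of Rps27rt to Rps27 was unstable on leaving out 1 library. It ran from -0.12 to 0.15 at 4 weeks and -0.14 to 0.0803 at 6 weeks.

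Without the extreme libraries the log2 ratio of Rpl3l to Rpl3 in CAC muscle at 6 weeks differed by -1.01 from Con and by -1.06 from NCAC. The exact adjusted p was 0.0529 for both, since 4 libraries against 5 allow no smaller p. Leaving out 1 library gave -1.17 to -1.01 and -1.22 to -1.06 at 6 weeks, and each of these runs lost the call. At 2 weeks against NCAC it gave -0.0014 to 0.0520. Taken over all groups, replicate numbers showed no clear pairing: 15 of 60 same-numbered pairs correlated above 0.1, and 12 libraries correlated best with their own number. Most of these 12 were pairs of CAC with NCAC, with a correlation of up to 0.332 at 2 weeks. Pairing was not tested for these groups alone. With the replicate block this log2 ratio of Rpl3l to Rpl3 in CAC differed by -1.11 and -1.27 from Con at 6 and 8 weeks. From NCAC it differed by -1.16 and -1.48 (exact adjusted p = 0.1875 for each, where 5 pairs allow no p under 0.0625). The fit assumes equal spread, and CAC libraries varied more.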
